A study of Mus musculus with 12 samples.

Results

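The 10 genes described here are feedback regulators of mitogen-activated protein kinase (MAPK) signalling: the dual-specificity phosphatases Dusp1, Dusp2, Dusp4, Dusp5, Dusp6 and Dusp10, the Sprouty genes Spry1 and Spry2, and the Spred genes Spred1 and Spred2. They were chosen by symbol, as 10 of the 14323 gene rows of the count table, and all 10 were present. RNA was measured by CEL-seq, which counts reads from the end of the transcript next to its poly(A) tail, in naïve CD8+ T cells sorted from spleens of 3 wild type mice as TCRβ+CD8+CD62L+CD44- cells. For 6 h, 100000 cells per well were kept on plates coated in 1 of 4 ways, with 1 library per mouse and condition and thus 12 libraries. Unstimulated isotype wells carried isotype control without anti-CD3, and unstimulated anti-LAIR-1 wells carried the agonistic anti-LAIR-1 clone 2C7 without anti-CD3. Anti-CD3 isotype wells carried 2.5 µg/ml anti-CD3 with isotype control, and anti-CD3 anti-LAIR-1 wells carried 2.5 µg/ml of each antibody. All 4 groups were the same sorted cells, with no costimulatory antibody named in the labels.

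In T cells the antigen receptor activates Ras, which starts the Raf, MEK and ERK kinase cascade, while parallel cascades end in p38 and JNK. The DUSP proteins remove phosphate from both the threonine and the tyrosine of activated MAPKs. Sprouty and Spred proteins act further upstream, on the step between receptor, Ras and Raf. Many of these genes are themselves induced by MAPK activity, so that their transcripts form negative feedback, and LAIR-1 is a collagen receptor that inhibits T cell activation.

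Library totals ranged from 1781218 to 7725545 counts, so that 3 counts per library, the floor used here for a gene without reads, stood for 0.405 to 1.62 CPM (counts scaled by library size and TMM factor). Correlations of log2 CPM across genes were 0.962 to 0.989 within groups and 0.752 to 0.830 between stimulated and unstimulated libraries. T cell and naïve CD8 markers had counts for 9 of 10 listed genes, with summed levels of 5722 to 6238 CPM in unstimulated isotype and 2305 to 2531 CPM in anti-CD3 isotype libraries. The 5 activation markers (Cd69, Il2ra, Nr4a1, Irf4, Tnfrsf9) summed to 200.4 to 241 CPM in unstimulated isotype and 2975 to 3167 CPM in anti-CD3 isotype libraries. CD4 T cell markers reached at most 4.85 CPM, B cell markers 10.3 CPM and NK cell markers 0.662 CPM, while 5 of 6 myeloid markers were in the table and summed to 28.4 to 63.5 CPM. Nearly all of that sum was Cst3, at group means of 34.3 to 54.8 CPM, while Csf1r, Itgam and Cd14 had group means of 0 to 0.544 CPM. The mitochondrial share of counts averaged 18.8% and 19.7% in the unstimulated groups and 12.1% and 12.4% in the stimulated groups. The part of these shifts in the results below was not tested. In bulk RNA, fewer cells expressing a gene and less RNA per cell cannot be told apart.

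Anti-CD3 changed 8 of the 10 feedback genes in the isotype wells, of which 6 rose and 2 fell. Dusp4 and Spry2 passed the filter on low counts only through their stimulated libraries, so for them only a rise could be called. They are part of the counts and of the median given here. Spry1 rose most among genes well measured in both groups, by 42.4-fold, followed by Dusp6 at 6.09-fold, Spred1 at 3.94-fold and Dusp2 at 3.16-fold, while Dusp4 and Spry2 went from almost no reads to several CPM. Dusp10 and Dusp1 fell, to 0.0972 and 0.350 of their unstimulated levels. Dusp5 and Spred2 had too few reads to be tested. Calls were made by the quasi-likelihood test of edgeR at an adjusted p under 0.05, with p-values adjusted over every gene in the fit. Of the 8690 genes tested in this comparison 71.3% passed, 35.3% as higher and 36.1% as lower, so that most genes of these cells changed. The median log2 fold change was 2.29 over the 8 tested feedback genes and -0.0256 over all genes tested.

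**Figure D1:**
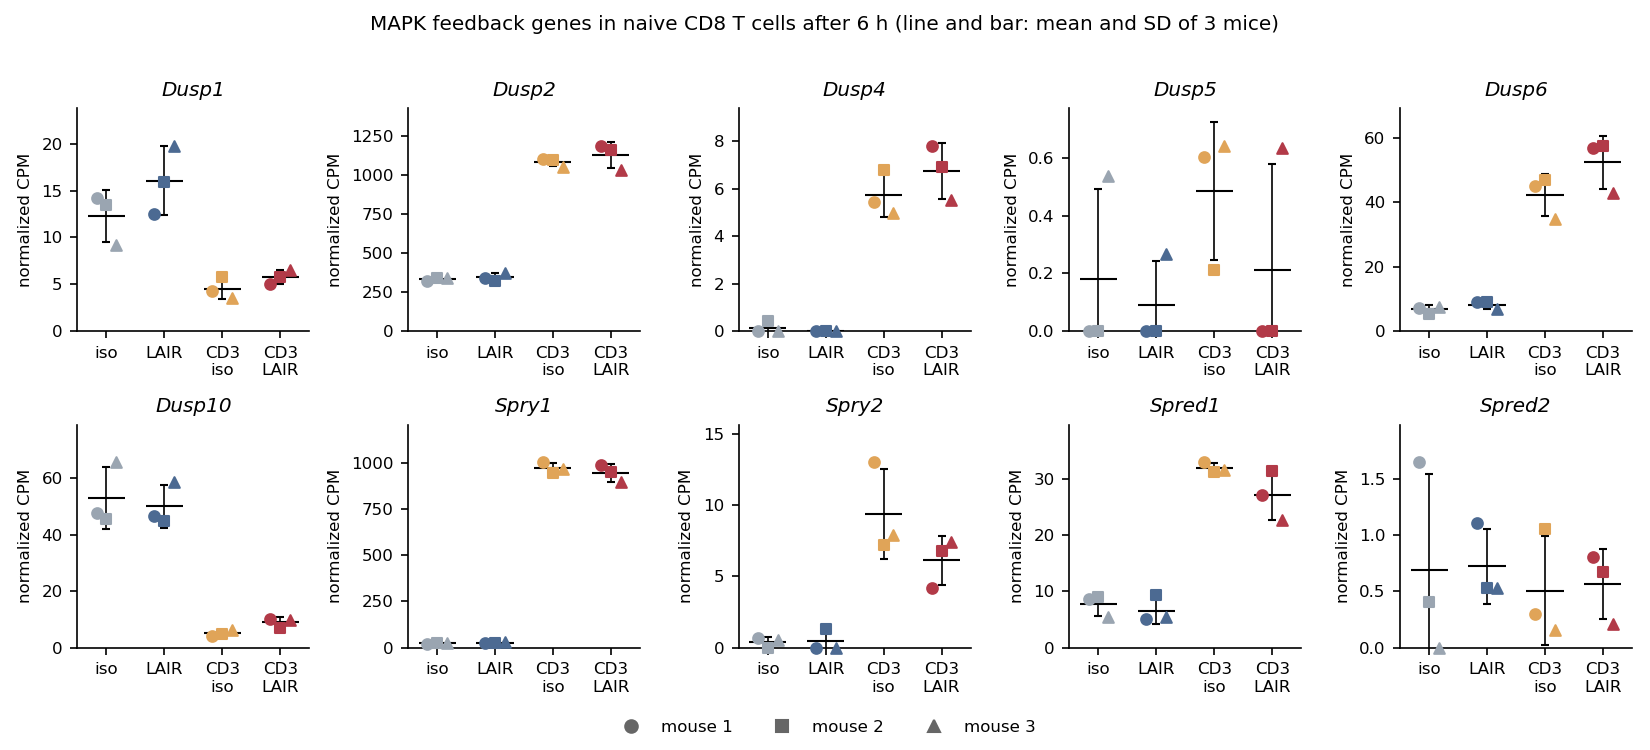
Normalized CPM of each of the 10 feedback genes (vertical axes, each starting at 0 with its own scale) in unstimulated isotype (iso), unstimulated anti-LAIR-1 (LAIR), anti-CD3 isotype (CD3 iso) and anti-CD3 anti-LAIR-1 (CD3 LAIR) libraries. Symbols mark the 3 mice, lines and bars the mean and SD. Stimulated and unstimulated libraries do not overlap for 8 genes, while Dusp5 and Spred2 stay at or below 1.66 CPM in every library. The share of all genes without such overlap was not counted.

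Dusp2 (chr2:127336159-127338376, plus strand, GRCm38) encodes an inducible nuclear phosphatase of lymphocytes. Its level was 319, 342 and 340.2 CPM in unstimulated isotype cells of mice 1, 2 and 3, and 1098, 1092 and 1050 CPM with anti-CD3. The groups were far apart relative to their spread (334 ± 12.5 against 1080 ± 26.3 CPM, SD, n = 3 each). The log2 fold change was 1.66 (SE 0.084), higher in 3 of 3 mice, with an edgeR quasi-likelihood adjusted p of 2.35e-14.

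Dusp4 (chr8:34807297-34819894, plus strand) encodes another nuclear phosphatase that acts on ERK and JNK. It was at 0, 0.408 and 0 CPM in unstimulated isotype libraries, which is 1 read in all, and at 5.44, 6.78 and 4.99 CPM with anti-CD3, from 81 reads. The ratio of these counts, scaled by library size, was 41.7 with a 95% conditional binomial interval of 7.27 to 1666 that covers counting error only. The fitted log2 fold change of 5.04 rested on that single read, since it was 7.45 without the unstimulated library of mouse 2 that holds it. It was 4.41 without the unstimulated library of mouse 1.

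Dusp1 (chr17:26505590-26562128, minus strand) encodes a nuclear phosphatase best known for acting on p38 and JNK, and belongs to the classical immediate early genes. It stood at 14.2, 13.5 and 9.17 CPM in unstimulated isotype cells and at 4.23, 5.72 and 3.54 CPM with anti-CD3. All 3 stimulated libraries lay below all 3 unstimulated ones, and the log2 fold change was -1.52 (SE 0.311; edgeR adjusted p = 0.000144). The gene overlaps Ergic1 by 640 bases on the opposite strand. Ergic1 averaged 13.5 CPM in unstimulated isotype and 31.5 CPM in anti-CD3 isotype libraries, the opposite direction to Dusp1. Whether the counting used strand is not given in the sources used here, so reads in the overlap cannot be told apart.

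Dusp5 (chr19:53529109-53542431, plus strand) encodes an ERK-specific nuclear phosphatase. It had 1 read in the unstimulated isotype libraries and 7 reads in the anti-CD3 isotype libraries, a ratio of 3.60 with a 95% interval from 0.463 to 162. At this depth no difference was detectable for Dusp5.

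Dusp6 (chr10:99263231-99267489, plus strand) encodes the main cytoplasmic phosphatase of ERK. It was at 7.28, 5.31 and 7.55 CPM in unstimulated isotype cells and at 45.0, 46.8 and 34.7 CPM with anti-CD3. The lowest stimulated library was well above the highest unstimulated one. The log2 fold change was 2.61 (SE 0.227), higher in 3 of 3 mice, with an edgeR adjusted p of 4.42e-10.

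Dusp10 (chr1:184013302-184075636, plus strand) encodes a phosphatase that prefers p38 and JNK over ERK. It was the feedback gene with the steepest fall, from 47.7, 45.7 and 65.8 CPM in unstimulated isotype cells to 3.93, 4.88 and 6.27 CPM with anti-CD3. The groups did not overlap, and the log2 fold change was -3.36 (SE 0.223; edgeR adjusted p = 3.3e-12). It overlaps 1700056E22Rik by 1272 bases on the opposite strand, a gene at 2.86 to 5.93 CPM in unstimulated isotype libraries and listed at 0 in all 3 anti-CD3 isotype libraries. The level of the overlapping gene moved in the direction of Dusp10, and its part in the Dusp10 result was not tested.

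Spry1 (chr3:37639947-37644598, plus strand) encodes an inhibitor of the Ras to Raf step. It was at 18.5, 26.1 and 23.2 CPM in unstimulated isotype cells and at 1005, 947 and 965 CPM with anti-CD3. The 3 stimulated libraries were close to each other (972 ± 29.6 CPM, SD, n = 3) and far above the unstimulated ones. The log2 fold change was 5.40 (95% interval 5.15 to 5.66; edgeR adjusted p = 2.62e-20), which placed Spry1 at percentile 99.5 of the log2 fold changes of all genes tested.

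Spry2 (chr14:105891947-105896819, minus strand) encodes a protein of the same family that also binds the ubiquitin ligase Cbl. It had 3 reads over the unstimulated isotype libraries, at 0.662, 0 and 0.539 CPM, and 126 reads with anti-CD3, at 13.0, 7.21 and 7.88 CPM. The scaled ratio of the counts was 21.6 (95% interval 7.22 to 106, counting error only). The edgeR adjusted p was 9.72e-07, from a test in which only a rise could be called. Its fitted log2 fold change moved from 4.34 to 5.07 without the unstimulated library of mouse 1.

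Spred1 (chr2:117121374-117182279, plus strand) encodes a membrane protein that brings neurofibromin, a Ras GTPase activating protein, to Ras. It was at 8.61, 8.98 and 5.39 CPM in unstimulated isotype cells and at 33.0, 31.1 and 31.5 CPM with anti-CD3. The groups were separate and the log2 fold change was 1.98 (SE 0.224; edgeR adjusted p = 3.73e-08). Its relative Spred2 (chr11:19924375-20024026, plus strand) had 6 reads in unstimulated isotype and 7 in anti-CD3 isotype libraries. The scaled ratio for Spred2 was 0.600 with a 95% interval from 0.173 to 2.16, so that neither a rise nor a fall was detectable.

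Because CEL-seq reads mark transcript ends, the counts were not divided by transcript length, and the following are shares of reads. The 10 genes together held 0.0427% to 0.0523% of all counts in unstimulated libraries and 0.195% to 0.220% in stimulated libraries. Dusp2 alone gave 75.1% to 77.5% of the reads of the 10 genes in unstimulated libraries. With anti-CD3 its share was 49.7% to 52.0%, and Dusp2 and Spry1 together held 94.8% to 95.7%. The feedback reads of stimulated cells were therefore almost wholly from these 2 genes, whereas Dusp4, Spry2, Dusp10 and Dusp1 each stayed at or below 13.0 CPM there.

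The same 8 genes passed the test where anti-LAIR-1 replaced the isotype control, with 6 higher and 2 lower. Dusp4 and Spry2 again passed the filter only through their stimulated libraries and are part of these counts and of the median. In that comparison 72.7% of 9000 genes passed, 36.4% as higher and 36.3% as lower, and the median log2 fold change was 2.36 over the 8 feedback genes and -0.0355 over all genes. Spry1 went from 23.8, 23.9 and 31.1 CPM to 989.5, 952 and 896 CPM, a log2 fold change of 5.16 (SE 0.105). Dusp2 went from 338, 317 and 374 CPM to 1186, 1159 and 1031 CPM, a log2 fold change of 1.71 (SE 0.0805). Both genes were again separate between groups in every library.

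Dusp6 went from 8.87, 9.02 and 6.69 CPM to 56.8, 57.6 and 42.8 CPM, which was 2.68 on the log2 scale (SE 0.18). Spred1 went from 4.99, 9.29 and 5.35 CPM to 27.1, 31.4 and 22.7 CPM, a log2 fold change of 2.04 (SE 0.227). Dusp10 fell by 2.47 on the log2 scale (SE 0.173), from 46.6, 44.9 and 58.9 CPM to 10.3, 7.10 and 9.75 CPM. Dusp1 fell by 1.50 on the log2 scale (SE 0.237), from 12.5, 15.9 and 19.8 CPM to 4.99, 5.75 and 6.57 CPM. None of these ranges overlapped between stimulated and unstimulated wells, and the largest edgeR adjusted p among the 8 genes was 3.81e-05, that of Spry2.

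Dusp4 had no reads in the 3 unstimulated anti-LAIR-1 libraries and 125 reads, at 7.82, 6.93 and 5.51 CPM, in the stimulated ones. Its mean of 6.75 CPM was at least 8.34-fold higher than the floor of 3 counts per library, which averaged 0.810 CPM in the unstimulated libraries. Spry2 had 5 reads without anti-CD3, all of them in mouse 2, and 106 reads with it. Its scaled ratio was 13.1 (95% interval 5.42 to 41.0), while its fitted log2 fold change of 3.66 became 7.94 without that unstimulated library of mouse 2.

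**Figure D2:**
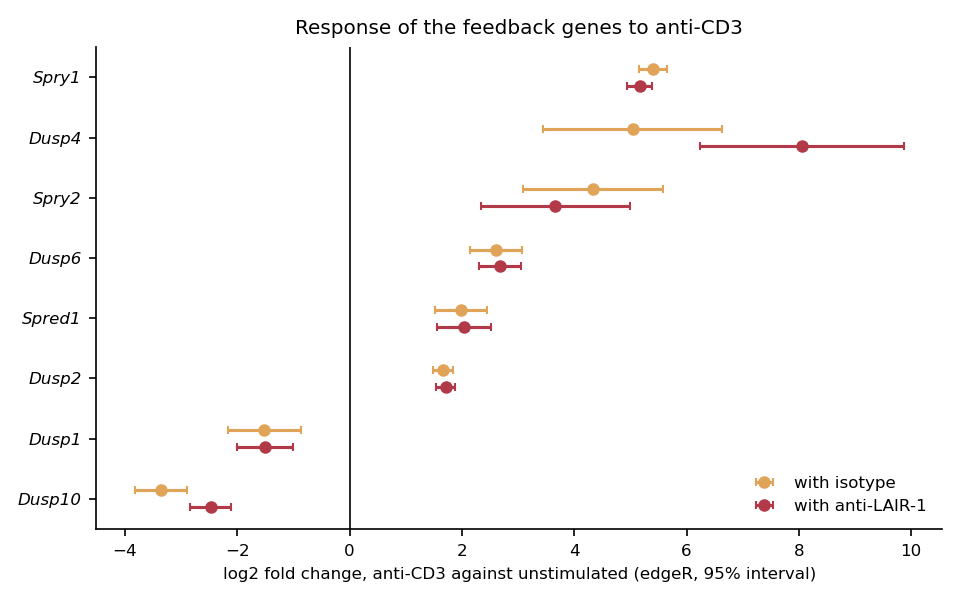
Log2 fold change of anti-CD3 against unstimulated wells for the 8 tested feedback genes, with 95% intervals, in the isotype wells (upper symbols) and the anti-LAIR-1 wells (lower symbols). Spry1 is at 5.40 and 5.16, and Dusp10 at -3.36 and -2.47; the wide intervals of Dusp4 and Spry2 belong to genes with at most 5 unstimulated reads per group.

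For the promoters of these genes, 9 of 10 had a RefSeq window (GRCm38.p6) from 250 bases before to 50 bases after the annotated start. Both strands were searched for 5 sequences linked to MAPK-driven transcription: the cyclic AMP response element TGACGTCA, the AP-1 site TGAGTCA, the EGR site GCGTGGGCG, the ETS site CCGGAAG, and the CArG box of the serum response element. None of these overlapped another in the windows printed. Of all 32851 promoter windows, 1.79% held TGACGTCA, 5.20% TGAGTCA, 0.612% GCGTGGGCG, 8.86% CCGGAAG and 1.63% a CArG box. Matches were found in Dusp1 (TGACGTCA, starting 143 bases before the start) and in Dusp5 (CArG boxes starting 82 and 72 bases before the start), and in no other window of the 9, which says only that these letters are not there. The windows of Dusp1 and Dusp5 are shown because they hold the matches, given in capitals, and those of Spry1 and Dusp10 because these genes had the steepest well-measured rise and fall. They lie at chr17:26508423-26508722 (minus strand, Dusp1), chr19:53528895-53529194 (plus strand, Dusp5), chr3:37639697-37639996 (plus strand, Spry1) and chr1:184034131-184034430 (plus strand, Dusp10). The windows of Dusp1 and Dusp10 lie wholly inside the gene spans given above, so the RefSeq start used for them is not the outer end of those spans.
Dusp1: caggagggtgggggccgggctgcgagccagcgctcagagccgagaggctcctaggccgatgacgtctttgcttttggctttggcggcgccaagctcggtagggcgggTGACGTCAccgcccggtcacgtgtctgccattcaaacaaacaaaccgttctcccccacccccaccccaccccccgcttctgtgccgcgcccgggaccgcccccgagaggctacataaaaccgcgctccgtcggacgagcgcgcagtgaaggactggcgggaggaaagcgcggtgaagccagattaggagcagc
Dusp5: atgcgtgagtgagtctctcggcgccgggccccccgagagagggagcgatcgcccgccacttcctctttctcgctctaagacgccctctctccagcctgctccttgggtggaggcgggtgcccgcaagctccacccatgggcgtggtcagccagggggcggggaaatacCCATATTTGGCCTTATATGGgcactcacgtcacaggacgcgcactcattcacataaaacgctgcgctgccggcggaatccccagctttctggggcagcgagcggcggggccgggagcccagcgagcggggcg
Spry1: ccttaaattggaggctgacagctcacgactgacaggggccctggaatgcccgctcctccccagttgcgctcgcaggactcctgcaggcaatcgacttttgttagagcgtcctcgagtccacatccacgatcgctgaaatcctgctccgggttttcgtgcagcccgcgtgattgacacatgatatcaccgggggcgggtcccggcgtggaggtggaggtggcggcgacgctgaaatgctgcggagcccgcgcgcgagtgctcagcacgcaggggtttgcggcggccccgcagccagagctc
Dusp10: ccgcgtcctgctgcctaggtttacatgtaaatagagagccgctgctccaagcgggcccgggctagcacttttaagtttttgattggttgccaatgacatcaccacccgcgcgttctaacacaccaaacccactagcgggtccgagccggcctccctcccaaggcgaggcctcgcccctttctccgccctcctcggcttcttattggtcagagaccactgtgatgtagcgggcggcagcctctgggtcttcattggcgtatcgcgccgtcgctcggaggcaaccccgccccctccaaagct

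Dusp1, with the cyclic AMP response element, fell with anti-CD3, and Dusp5, with adjacent CArG boxes, was almost without reads. None of the 5 sequences was in the windows of Spry1, Dusp2, Dusp6, Spry2 and Spred1, which rose, of Dusp10, which fell, or of Spred2. Dusp4, which rose, had no window. Whether these sequences bear on the response to anti-CD3 was not tested. The member windows had a GC content of 57.0% to 72.3%, against a median of 52.7% over all windows.

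The question the study put to these cells was what LAIR-1 ligation does during stimulation through CD3. No feedback gene passed the threshold. With anti-CD3, anti-LAIR-1 against isotype gave 0 of 8 tested genes at an adjusted p under 0.05 by edgeR, and 3 at an unadjusted p under 0.05. DESeq2 gave 0 of 8, with 1 at an unadjusted p under 0.05. Over all 8800 genes tested 5.76% passed by edgeR and 18.8% had an unadjusted p under 0.05. By DESeq2 1302 of these genes had an unadjusted p under 0.05. The median log2 difference was 0.152 over the 8 feedback genes and 0.00474 over all genes. The 2 genes with the most reads had narrow intervals around 0, whereas Dusp10, Dusp6 and Spry2 had the smallest p-values.

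Dusp10 was at 3.93, 4.88 and 6.27 CPM with isotype and at 10.3, 7.10 and 9.75 CPM with anti-LAIR-1 in stimulated cells of mice 1, 2 and 3. All 3 anti-LAIR-1 libraries lay above all 3 isotype libraries, and the differences within mice were 1.28, 0.50 and 0.60 on the log2 scale. The fitted difference was 0.80 (SE 0.256; 95% interval 0.25 to 1.34), at an edgeR adjusted p of 0.0818, so it did not pass. Without the filter on low counts the adjusted p was 0.0484, and over all other settings it ranged up to 0.488. Both stimulated levels were far below the unstimulated ones.

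Dusp6 was at 45.0, 46.8 and 34.7 CPM with isotype and 56.8, 57.6 and 42.8 CPM with anti-LAIR-1. The group ranges overlapped, while the differences within mice were 0.33, 0.30 and 0.30 on the log2 scale, positive in 3 of 3 mice. The fitted difference was 0.33 (SE 0.139; edgeR adjusted p = 0.207), and the lowest adjusted p under any setting was 0.0794. Keeping the mouse as a block gave 0.30, at an edgeR adjusted p of 0.114. Dusp6 did not pass under any setting that was run.

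Spry2 was at 13.0, 7.21 and 7.88 CPM with isotype and 4.18, 6.76 and 7.42 CPM with anti-LAIR-1. Mouse 1 alone carried most of this difference, with -1.53 on the log2 scale, against -0.0865 in mouse 2 and -0.0827 in mouse 3. The fitted difference was -0.61 (SE 0.285), with an edgeR adjusted p of 0.26.

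Dusp2 and Spry1, the genes with the most reads, had the narrowest intervals. Dusp2 differed by 0.05 on the log2 scale (95% interval -0.09 to 0.20) and Spry1 by -0.05 (95% interval -0.18 to 0.09). Spred1 differed by -0.23 (95% interval -0.53 to 0.06), Dusp4 by 0.25 (95% interval -0.29 to 0.80) and Dusp1 by 0.35 (95% interval -0.27 to 0.96), with overlapping libraries in each case. Their edgeR adjusted p-values were 0.39 to 0.775 over these 5 genes. Dusp5 had 3 reads with anti-LAIR-1 and 7 with isotype, and Spred2 had 11 and 7, too few to test.

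**Figure D3:**
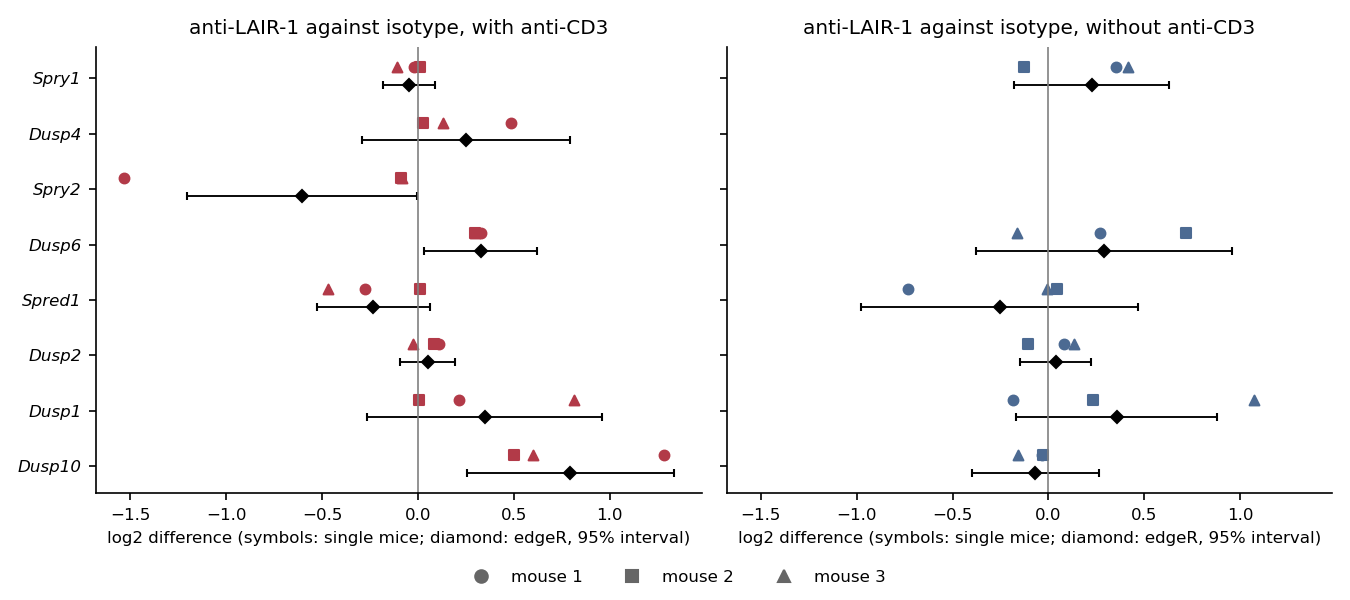
Log2 difference of anti-LAIR-1 against isotype for each feedback gene, with anti-CD3 (left) and without (right); coloured symbols are single mice, diamonds the edgeR fit with its 95% interval. With anti-CD3, the 3 mice of Dusp6 lie between 0.30 and 0.33 and those of Dusp10 between 0.50 and 1.28; without anti-CD3, Dusp10 lies between -0.16 and -0.03. Dusp4 and Spry2 were not tested without anti-CD3.

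Without anti-CD3, 6 of the 10 genes had enough reads, and 0 of 6 passed by edgeR or DESeq2, with 0 at an unadjusted p under 0.05 in either. Of all 8770 genes tested, 0% passed, and 384 had an unadjusted p under 0.05. Dusp1 had the largest difference, 0.36 on the log2 scale (95% interval -0.17 to 0.88), from 12.3 ± 2.73 to 16.1 ± 3.67 CPM (SD, n = 3 each). Dusp2 differed by 0.04 (95% interval -0.15 to 0.22), Dusp10 by -0.07 (95% interval -0.40 to 0.27) and Spry1 by 0.23 (95% interval -0.18 to 0.63). Dusp6 differed by 0.29 (95% interval -0.38 to 0.96) and Spred1 by -0.25 (95% interval -0.98 to 0.47). The libraries of the 2 unstimulated groups overlapped for all 10 genes.

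Whether the anti-LAIR-1 effect itself differed with and without anti-CD3 was tested as an interaction in all 12 libraries. By edgeR 0 of 8 feedback genes passed and 1, Dusp10, had an unadjusted p under 0.05. DESeq2 gave an adjusted p for only 5 of the 8, of which 0 passed, with 1 feedback gene at an unadjusted p under 0.05. Of 9223 genes tested 2.07% passed by edgeR and 12.2% had an unadjusted p under 0.05, which 977 genes had by DESeq2. The interaction of Dusp10 was 0.86 on the log2 scale (95% interval 0.25 to 1.47), positive in 3 of 3 mice, with an edgeR adjusted p of 0.162. For Dusp2 it was 0.02 (95% interval -0.21 to 0.25) and for Spry1 -0.27 (95% interval -0.62 to 0.08).

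Ordering the 4 conditions by mean level, the break lay between stimulated and unstimulated wells for 8 genes, and neighbouring conditions on the same side overlapped in every case but 1. That case was Dusp10, where anti-CD3 anti-LAIR-1 (9.03 ± 1.69 CPM, SD, n = 3) and anti-CD3 isotype (5.03 ± 1.18 CPM, SD, n = 3) did not overlap. For Dusp5 and Spred2 all neighbouring conditions overlapped. The share of all genes with such a break or gap was not counted. By the edgeR test 71.3% (isotype) and 72.7% (anti-LAIR-1) of all genes tested passed for anti-CD3. For anti-LAIR-1 against isotype in stimulated cells 5.76% of all genes tested passed, and Dusp10 did not.

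The genes whose pattern over the 12 libraries was most like that of each feedback gene were found among 6395 genes by the root mean square difference of centred log2 CPM. Dusp2 was closest to Bmi1 (0.0577) and Stt3a (0.0762). Spry1 was closest to Tnfrsf9 (0.155), a costimulatory receptor, and Bcat1 (0.262), a cytosolic aminotransferase of branched-chain amino acids. Dusp6 was closest to the activation marker Cd69 (0.222) and Atad3a (0.234), and Dusp4 to the transcription factors Nr4a1 (0.244) and Egr2 (0.250). The log2 CPM used a prior count of 2, by which Dusp4 rose by 3.4 on average with isotype, against 5.04 in the fit. With almost no unstimulated reads, its nearness to these genes depends on that prior count.

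Among the genes that fell, Dusp10 was closest to Cytip (0.199) and Lsp1 (0.223). Dusp1 was closest to Vamp1 and Tmx4 (0.200 each). Spred1 was closest to Crls1 (0.186) and Gtpbp4 (0.221). Spry2 had no near match, with Slc25a33 at 0.507 and Sult2b1 at 0.554.

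Other genes of the pathway were taken from 6 lists of 103 genes in all, of which 81 could be tested for anti-CD3 with isotype, 32 rising and 24 falling. That is 69.1% called, near the 71.3% of all genes. These counts include genes that passed the filter on low counts only through their stimulated or only through their unstimulated libraries. Such genes could be called only as higher in the group that passed. The list of early response genes linked to ERK had the most rises, 13 of 17 tested and none falling, with a median log2 fold change of 1.39. Nr4a2 rose by 4.72, Myc by 3.94, Cdkn1a by 3.76 and Nr4a1 by 3.69 on the log2 scale. Nr4a1 and Egr2, the closest in pattern to Dusp4 at the prior count used, both belong to this list.

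In the Ras and ERK cascade 2 of 20 tested genes rose and 10 fell, with a median of -0.438, where 35.3% of all genes rose and 36.1% fell. Rasgrp2 and Rasgrp1, exchange factors that load Ras family proteins with GTP, fell by 4.64 and 2.13 on the log2 scale. Mapk3, which encodes ERK1, fell by 3.28 and Rras by 2.74. Rasgrp2 reached at most 2.72 CPM in anti-CD3 isotype libraries and passed the filter on low counts only through its unstimulated libraries. For Rasgrp2, therefore, only a fall could be called. The stimulated libraries of Mapk3 did not meet that filter by themselves.

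Of the other brakes on ERK, 5 of 15 rose and 5 fell, with a median of -0.161, near the shares of 35.3% and 36.1% over all genes. Rasa3, a Ras and Rap GTPase activating protein, fell by 4.77, and Rasal3, another of that class, by 2.08. Rgs1, a regulator of G protein signalling, rose by 3.23, and Errfi1, an inhibitor of the EGF receptor, by 2.47 on the log2 scale. Errfi1 reached at most 2.70 CPM in unstimulated isotype libraries and passed the filter on low counts only through its stimulated libraries. For Errfi1, therefore, only a rise could be called. The unstimulated libraries of Rgs1 did not meet that filter by themselves.

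Of the other MAPK phosphatases and atypical DUSPs, 4 of 10 rose and 3 fell, with a median of -0.365, also near the shares over all genes. Dusp23 fell by 2.53 and Dusp19 by 1.53 (2.45 after thinning to the smallest total), while Dusp22 rose by 1.41 and Ptpn7 by 1.18 on the log2 scale. Dusp23 and Dusp19 reached at most 1.81 and 2.9 CPM in anti-CD3 isotype libraries. They passed the filter on low counts only through their unstimulated libraries, so for them only a fall could be called. The changes of these 4 genes were smaller than that of Spry1 or Dusp10 in this comparison. In the p38 and JNK cascade 8 of 19 rose and 6 fell, with a median of 0.319, against 71.3% called in either direction over all genes. Map2k3, a kinase that activates p38, rose by 3.94 and Gadd45b by 1.80, while Map3k1 fell by 2.11 and Map3k4 by 1.83. Map3k4 reached at most 2.57 CPM in anti-CD3 isotype libraries, so that for it too only a fall could be called. Of the 3 remaining Sprouty and Spred genes 2, Spry4 and Spred3, were in the count table, and neither had enough reads to be tested in this comparison. Spry4 rose by 3.09 in the anti-LAIR-1 wells, where it could be tested (3.77 without the unstimulated library of mouse 2). It had 5 unstimulated and 74 stimulated reads there, so that only a rise could be called.

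In the anti-LAIR-1 wells 35 of 84 tested pathway genes rose and 29 fell with anti-CD3, so that 76.2% were called, against 72.7% of all genes (36.4% higher and 36.3% lower). By list the counts of rises and falls were 13 and 2 of 19 early response genes, 3 and 12 of 21 in the Ras and ERK cascade, 6 and 5 of 15 other brakes, 3 and 5 of 10 other phosphatases, and 9 and 5 of 18 in the p38 and JNK cascade. As with isotype, they include genes that passed the filter on low counts only through their stimulated or only through their unstimulated libraries.

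**Figure D4:**
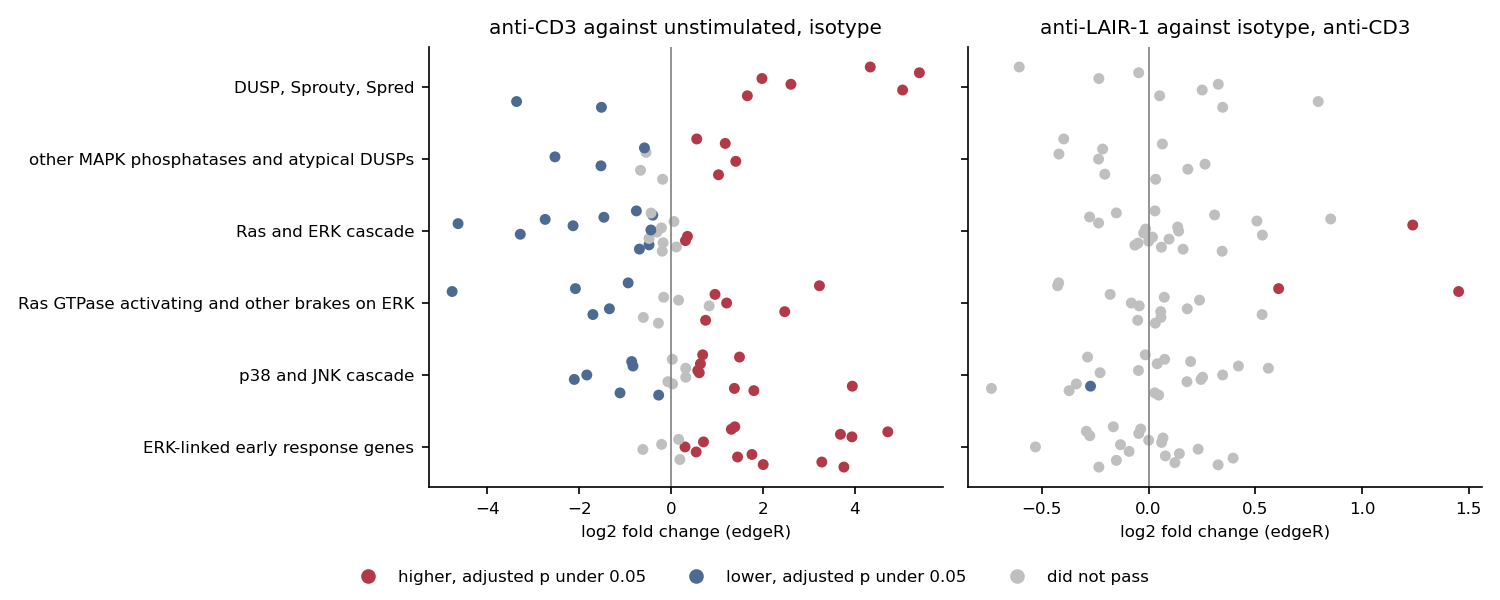
Log2 fold change of each tested gene of the feedback set (top) and of 5 pathway lists, for anti-CD3 against unstimulated wells with isotype (left) and for anti-LAIR-1 against isotype in stimulated wells (right); red and blue points passed an adjusted p of 0.05 as higher and lower, grey points did not. On the left 6 feedback genes are red and 2 blue, and on the right none is coloured, against 3 red and 1 blue among the pathway genes.

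With anti-LAIR-1 in stimulated cells, 4 of 84 tested pathway genes passed, 3 higher and 1 lower, which at 4.76% is near the 5.76% of all genes. Rasa3 was at 14.8, 9.96 and 13.7 CPM with isotype and 27.9, 30.3 and 48.3 CPM with anti-LAIR-1, a log2 difference of 1.45 (edgeR adjusted p = 0.000405). Rasal3 was at 37.5, 32.4 and 28.3 CPM with isotype and 47.3, 47.0 and 54.9 CPM with anti-LAIR-1, a log2 difference of 0.61 (edgeR adjusted p = 0.00788; 0.0636 in DESeq2 with the mouse as a block). Both had fallen with anti-CD3, Rasa3 by 4.77 with isotype and 3.01 with anti-LAIR-1 and Rasal3 by 2.08 and 1.38 on the log2 scale.

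Rasgrp2 was at 2.72, 2.12 and 1.45 CPM with isotype and 4.99, 4.22 and 5.09 CPM with anti-LAIR-1, a log2 difference of 1.24 (edgeR adjusted p = 0.0486). Its isotype libraries did not meet the filter on low counts by themselves, since that of mouse 3 was below it, while its anti-LAIR-1 libraries did. With the mouse as a block its edgeR adjusted p was 0.0628, and by DESeq2 it was 0.123, so neither kept the call. Without the anti-CD3 isotype library of mouse 3, Rasgrp2 gave 0.98 at an adjusted p of 0.199, and leaving out any other of the 6 libraries also ended its call. Map2k3 was lower, by 0.27 on the log2 scale (1374 ± 39.9 against 1144 ± 81.9 CPM, SD, n = 3 each; edgeR adjusted p = 0.0229), and lost its call without the isotype library of mouse 1 or 2 or without the anti-LAIR-1 library of mouse 2 or 3. Rasal3 lost its call without the isotype library of mouse 3, at an adjusted p of 0.0509. Of the 19 early response genes tested 0 passed by edgeR, with 5 at an unadjusted p under 0.05, and 1 passed by DESeq2. Over all genes tested 18.8% had an unadjusted p under 0.05 by edgeR.

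The T cell and naïve CD8 marker list was also higher with anti-LAIR-1 in stimulated cells, at 2913 to 3392 CPM against 2305 to 2531 CPM, and the activation list lay at 2634 to 2980 CPM against 2975 to 3167 CPM. The part of these shifts in the values of Dusp10, Rasa3, Rasal3 and Rasgrp2 was not tested. Without anti-CD3, 0 of 80 tested pathway genes passed by edgeR or DESeq2, with 5 at an unadjusted p under 0.05 by edgeR, against 4.38% of all genes.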

How the data were processed

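Libraries of 12 samples, 3 mice in each of 4 groups, were made by CEL-seq and sequenced on a NextSeq. The deposited values are raw read counts per gene symbol: the authors used BWA MEM with the transcriptome of mm10, kept only reads with a single best location, and counted these with MapAndGo. Whether molecular identifiers were collapsed is not given in the sources used here, so intervals and floors cover counting error only. Groups came from the sample titles.

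Counts were scaled by TMM, filtered with filterByExpr, and tested with edgeR 4.0.16 (glmQLFit and glmQLFTest, R 4.3.3) in the 6 libraries of each comparison, or in all 12 for the interaction. Benjamini-Hochberg adjustment covered every gene in the fit, and the threshold was 0.05. CPM values shown used 1 TMM scaling of all 12 libraries, and log2 CPM a prior count of 2. DESeq2 1.42.0, its size factors, other filters, thinning to the smallest total, a block for the mouse and leaving out each library were tried, and scaling to library totals was chosen after seeing the data. The scripts were tested on simulated data.

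The sample titles number the mice, and the same number was taken as the same animal in each group. Deviations from the group means correlated at 0.0432 on average in same-mouse pairs (-0.00682 to 0.0882) and at -0.0216 in pairs of different mice. The deviations of a group sum to 0, so the second average largely follows from the first and is no separate check of the pairing. An exact permutation test of 3 against 3 cannot give p below 0.1, so single genes were tested only in the fits over all genes.

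The 10 members were named in every comparison. Of each pathway list at most the 4 genes with the largest absolute log2 fold change past the threshold were named, and of likeness the 2 closest genes with a mean of at least 50 counts. Members and lists were chosen with earlier results of these data known. Positions are from GENCODE M21 (GRCm38), promoter windows from RefSeq.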

Additional observations from a re-analysis of the deposited data

Results flagged for a closer look

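No feedback gene had an anti-LAIR-1 effect that differed past the threshold with and without anti-CD3. Among the pathway genes given beside them, Rasa3 and Rasal3 did by the interaction test. The interaction of Rasa3 was 1.73 on the log2 scale (SE 0.256; edgeR adjusted p = 0.000185), from means of 338 and 279 CPM with isotype and anti-LAIR-1 in unstimulated cells and of 12.8 and 35.5 CPM in stimulated cells. The interaction of Rasal3 was 0.67 (SE 0.163; edgeR adjusted p = 0.0246), from means of 133 and 128 CPM in unstimulated and of 32.7 and 49.7 CPM in stimulated cells. The Rasal3 interaction was no longer past the threshold where any 1 of 6 of the 12 libraries was left out, at adjusted p-values of 0.058 to 0.102, the highest without the anti-CD3 isotype library of mouse 3.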

How the results depend on the processing

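Under the alternatives run, all feedback genes that remained testable for anti-CD3 kept their direction and call: 8 of 8 in most settings, 6 of 6 with at least 10 counts in every library, and 7 of 7 (isotype) and 6 of 6 (anti-LAIR-1) after thinning. For Dusp4 and Spry2 only a rise could be called wherever low counts were filtered. With the replicate block for the mouse, edgeR called 8, 8, 0, 0 and 0 feedback genes in the 5 comparisons, and the block changed no call of a feedback gene. Scaling by library totals moved the median of all genes by -0.0913 (isotype) and -0.111 (anti-LAIR-1) for anti-CD3 and no call of a feedback gene. With anti-CD3, 1 feedback gene, Dusp10, passed for anti-LAIR-1 without the filter on low counts, where 13347 genes were tested; the cause was not tested.

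Values that changed sign were all short of the threshold before and after, and the cause was not tested. After thinning, Spred1 without anti-CD3 was 0.2559, and the interactions of Dusp6 and Spred1 were -0.07154 and -0.3329. Without the filter the interaction of Dusp2 was -0.01101, and with the block that of Dusp1 was 0.02488 (edgeR) and 0.0154 (DESeq2). Leaving out 1 library at a time, the anti-LAIR-1 difference without anti-CD3 ranged from -0.03384 to 0.09196 for Dusp2 and from -0.205 to 0.09844 for Dusp10. The interaction then ranged from -0.1904 to 0.2133 for Dusp1, from -0.03597 to 0.08517 for Dusp2, from -0.09792 to 0.1769 for Dusp6, from -1.472 to 3.298 for Spry2 (the highest without the unstimulated anti-LAIR-1 library of mouse 2, which held all 5 reads of its group) and from -0.1262 to 0.3715 for Spred1. Of the counts of calls in the pathway lists, 50 moved by over 1.5 times or to or from 0 and 430 did not. Depth limited Dusp5 and Spred2 throughout, and Dusp4 and Spry2 in unstimulated cells.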
